A study of Homo sapiens with 2 samples.

Results

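Keratins were examined in poly-A RNA of HCT-116, a long-established line of human colorectal carcinoma cells. The genes were KRT7, KRT8, KRT80 and KRT81, which encode 4 type II keratins, and KRT13, KRT15, KRT18, KRT19, KRT20 and KRT23, which encode 6 type I keratins. They were picked by gene symbol from the deposited isoform table, with their values in both libraries already known, so their values and counts are descriptions and no test was made. The list holds 10 of 26257 genes and 20 of 63236 isoforms. One library came from untreated cells (control) and 1 from serum-starved cells given 10 µM lysophosphatidic acid (LPA) for 24 h. LPA is a signalling phospholipid that acts on G protein-coupled receptors. The labels do not say whether the control cells were also starved, so any effect of starvation cannot be told apart from that of LPA. With 1 library per group there is no replicate check, no p-value and no standard error, and every difference below is between these 2 libraries.

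Keratins are the intermediate filament proteins of epithelia. A filament is built from pairs of 1 acidic type I chain and 1 basic type II chain, so that a cell needs both kinds. Simple epithelia such as the gut lining make KRT8 with KRT18, KRT19 and, in differentiated intestinal cells, KRT20. KRT7 is found in many glandular and ductal epithelia and is usually low in the colon. KRT13 and KRT15 belong to stratified epithelia, KRT81 to the cortex of the hair shaft, and KRT23 and KRT80 are less studied epithelial keratins.

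Levels are FPKM, an estimate of fragments per length of transcript and per depth of library, summed over the isoforms of a gene, so that levels of different genes can be set side by side. The log2 ratio is log2((LPA + 1)/(control + 1)) and understates differences of genes near or under 1 FPKM. Limits of 1.5-fold and 2-fold apply to this ratio, whereas a fold given for a single gene is the plain quotient of its FPKM. Of the 10 keratins, 9 reached a mean of 1 FPKM over both libraries, as did 11688 genes in all, and these are called measured. KRT80 did not, with a mean of 0.925 FPKM. The depth, estimated from the FPKM, was about 16700000 fragments in control cells and 15700000 in LPA-treated cells. The epithelial markers EPCAM (220 FPKM in control cells and 223 FPKM in LPA-treated cells) and CDH1 (10.4 and 11.4 FPKM) were present in both, and of the 6 epithelial markers 4 had a ratio above 0 and 2 below. The 25 reference genes had a median log2 ratio of 0.05, with 1 of them, B2M (935 and 619 FPKM), at least 1.5-fold lower. Of 10 fibroblast markers 2 were measured, COL1A1 (5.75 and 4.28 FPKM) and ACTA2 (2.40 and 2.19 FPKM). Of 12 immune markers 1 was measured, CD68 (2.64 and 2.85 FPKM), and of 8 endothelial markers 0. The summed level of the fibroblast list was 8.20 FPKM in control cells and 6.54 FPKM in LPA-treated cells, that of the immune list 3.433 and 4.004 FPKM, and that of the endothelial list 0.390 and 0.302 FPKM. The leukocyte marker PTPRC and the fibroblast marker DCN were listed at 0 in both libraries, a value that can also be a failed estimate. The endothelial marker PECAM1 had 0.0232 and 0.0251 FPKM.

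Of the 9 measured keratins, 7 had a log2 ratio above 0 and 2 below, beside 50.2% of all measured genes above 0. KRT81, KRT7, KRT13 and KRT18 were at least 1.5-fold higher in the LPA library, KRT15, KRT19 and KRT8 were higher by less, and KRT20 and KRT23 were slightly lower. Past the same limit lay 1.45% of all measured genes on the higher side and 1.54% on the lower side, where no keratin was found. The first 3 were also at least 2-fold higher, as were 0.351% of all genes. The median log2 ratio of the 9 keratins was 0.52, against 0.0009 for all measured genes, of which 95% lay between -0.51 and 0.49. KRT81 and KRT13 were under 1 FPKM in the control and count as measured only through the LPA library, where they were high. The keratins were also chosen with this contrast known, so nothing is read from the counts, the median or the shares. With a pseudocount of 5 the number at least 1.5-fold higher was 2, KRT81 and KRT18, beside 0.599% of all genes. With a minimum mean of 5 FPKM it was 1, KRT18, beside 1.39%. Since this is bulk RNA, more cells making a keratin and more RNA per cell cannot be told apart.

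**Figure D1:**
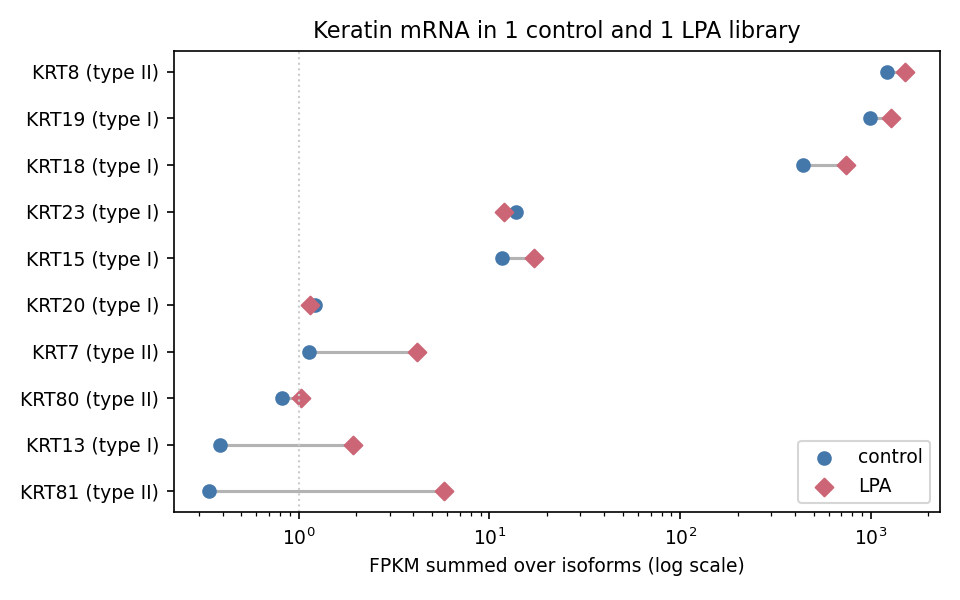
FPKM of the 10 keratin genes (log axis), summed over isoforms, in the control (circles) and the LPA library (diamonds), 1 library each, with a dotted line at 1 FPKM. KRT8, KRT19 and KRT18 lie far above the others, and the widest gaps are at KRT81 (0.338 and 5.79 FPKM), KRT13 and KRT7.

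The keratin message of these cells was nearly all KRT8, KRT18 and KRT19, the simple epithelial set. Together these 3 genes held 98.9% of the FPKM of the 10 keratins in control cells and 98.8% in LPA-treated cells. The 10 keratins summed to 2669 FPKM in control cells and 3560 FPKM in LPA-treated cells, or 0.372% and 0.502% of all FPKM. The other 7 summed to 29.3 and 43.1 FPKM.

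KRT8, the main type II partner in simple epithelia, had 1208 FPKM in control cells and 1507 FPKM in LPA-treated cells, with a log2 ratio of 0.32. It ranked 95 by level among all genes in control cells and 83 in LPA-treated cells. Of its 4 isoforms, NM_002273 carried 1194 and 1495 FPKM, with deposited bounds of 751 to 1637 and 910 to 2081 FPKM. These bounds come from the authors' software, their level is not stated, and they hold no spread between replicates. The bounds overlap over most of their length, and the remaining 3 isoforms lay between 1.13 and 6.72 FPKM with lower bounds of 0.

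KRT19, the smallest type I keratin and one found in many simple and ductal epithelia, had 989 FPKM in control cells and 1268 FPKM in LPA-treated cells. Its log2 ratio was 0.36, and its bounds were 697 to 1281 and 889 to 1648 FPKM. KRT18, the usual partner of KRT8, was lower in level and further apart, with 442 and 741 FPKM. Its log2 ratio of 0.74 ranked 73 of 11688 genes. The main KRT18 isoform NM_000224 had 423 and 693 FPKM, with bounds of 123 to 723 and 248 to 1139 FPKM. NM_199187 had 19.2 and 48.2 FPKM, both with a lower bound of 0. The 1.68-fold difference of KRT18 therefore lies within overlapping bounds.

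By level the order was KRT8, KRT19 and KRT18 in both libraries. The bounds of the leading KRT8 and KRT19 isoforms overlap in each library, and so do those of KRT19 and KRT18, so that neighbours in this order do not differ beyond their bounds.

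Some reads of KRT8 and KRT18 may be hard to place. The genes lie on opposite strands of chromosome 12 and overlap in the GENCODE annotation. They share 1 locus of the table (52897187 to 52952901, hg38), and the library kit does not mark strand. Among 50-base windows of the GENCODE v29 transcript that matches the leading isoform, 37.1% of KRT8 and 47.6% of KRT18 also occur in transcripts of another gene. For KRT8 these are mostly processed pseudogenes, led by KRT8P3 with 21.5% of the windows. For KRT18, 31.8% of windows recur on the same strand, led by KRT18P11 with 9.98%. The largest partner of KRT18 is KRT8 itself, on the opposite strand. A retained-intron transcript class of KRT8 holds 16.9% of the windows, and its coding transcripts hold 5.82%. Without strand marks these windows do not separate KRT18 from KRT8. KRT19 shares 1.79% of its windows, all with KRT19P1. The differences were 1.28-fold for KRT19, 1.25-fold for KRT8 and 1.68-fold for KRT18. Whether read placement bears on them was not tested. Read length is not given in the sources used here, so these shares describe the sequences and not the mapping.

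Type I and type II messages can be compared per length. Type I keratins summed to 1458 FPKM in control cells and 2042 FPKM in LPA-treated cells, and type II keratins to 1211 and 1518 FPKM. The type II to type I ratio was 0.830 in control cells and 0.743 in LPA-treated cells. KRT8 stood at 2.73 times KRT18 in the control and 2.03 times in the LPA library. KRT18 made up 30.3% of the type I FPKM in control cells and 36.3% in LPA-treated cells. These sums rest on the 3 abundant genes, whose bounds overlap between the libraries.

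By ratio, the largest differences were in keratins of low level that are best known from other tissues than the colon. By plain difference they were in KRT18, KRT8 and KRT19, at 299, 298 and 279 FPKM against 5.45 FPKM for KRT81. KRT81, a type II hair cortex keratin on chromosome 12 (52285913 to 52291515), had 0.338 FPKM in control cells and 5.79 FPKM in LPA-treated cells, a 17.1-fold difference with a log2 ratio of 2.34. In the control this is worth about 11 fragments, and in the LPA library about 174. The bounds were 0.0732 to 0.602 FPKM and 3.83 to 7.75 FPKM, and their nearest ends are 6.36-fold apart. The log2 ratio ranked 13 of 11688 genes. Apart from 1 gene, those ranked above it have no isoform of 300 nt or more, and FPKM of such short RNAs are uncertain. Among the 11634 measured genes whose longest isoform has 300 nt or more, where KRT18 ranked 53, only CPA4, a carboxypeptidase gene with 1.25 and 12.5 FPKM (log2 ratio 2.59), had a higher log2 ratio than KRT81.

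KRT81 has close relatives beside it, so the sequences are shown to tell where reads could be placed. Over the coding sequence, KRT81 is 94.2% identical to KRT86 and 93.3% to KRT83, both type II hair keratins. Of the 50-base windows of KRT81, 44.6% occur in another gene. KRT86 holds 38.4%, the transcribed pseudogene KRT87P 9.04% and KRT83 6.22%. The stretch of 60 coding bases with the most mismatches to KRT86 (coding bases 1249 to 1308, on chromosome 12 between 52286465 and 52286821 for KRT81 and between 52308234 and 52308432 for KRT86, GRCh38) is printed 5′ to 3′ with the 14 mismatches in capitals.
KRT81: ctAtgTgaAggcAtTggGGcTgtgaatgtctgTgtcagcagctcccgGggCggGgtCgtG
KRT86: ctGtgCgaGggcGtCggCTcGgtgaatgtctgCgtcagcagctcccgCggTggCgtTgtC
Fragments over such a stretch separate the genes, and those over the shared windows do not. The table gave KRT86 0.0603 FPKM in control cells and 0.147 FPKM in LPA-treated cells, and KRT83 was listed at 0 in both. KRT87P was not among the keratin symbols listed, so its level is not known here. In the GENCODE annotation a longer KRT86 gene also spans KRT81 on the opposite strand, but every shared window of KRT81 matched in the same sense, and none matched an antisense transcript.

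KRT7, a type II keratin of ductal epithelia, lies on the same arm of chromosome 12 (52233170 to 52248925). It had 1.13 FPKM in control cells and 4.17 FPKM in LPA-treated cells, worth about 32 and 112 fragments. The difference was 3.68-fold (log2 ratio 1.28), and the bounds of 0.556 to 1.71 and 2.64 to 5.70 FPKM did not overlap. An antisense gene, KRT7-AS, covers 10.4% of the windows of KRT7, while 0.997% recur on the same strand in other genes.

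KRT13, a type I keratin of the oesophagus and other internal stratified epithelia, lies on chromosome 17 (41500981 to 41505613). Its 0.388 FPKM in control cells and 1.93 FPKM in LPA-treated cells are worth about 11 and 52 fragments. The difference was 4.98-fold (log2 ratio 1.08). Almost all of it was in the isoform NM_153490, with bounds of 0.109 to 0.667 and 1.09 to 2.77 FPKM, which did not overlap. The antisense gene AC019349.1 holds 17.3% of the windows of KRT13. KRT4, the usual partner of KRT13 in stratified epithelia, was listed at 0 in both libraries.

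**Figure D2:**
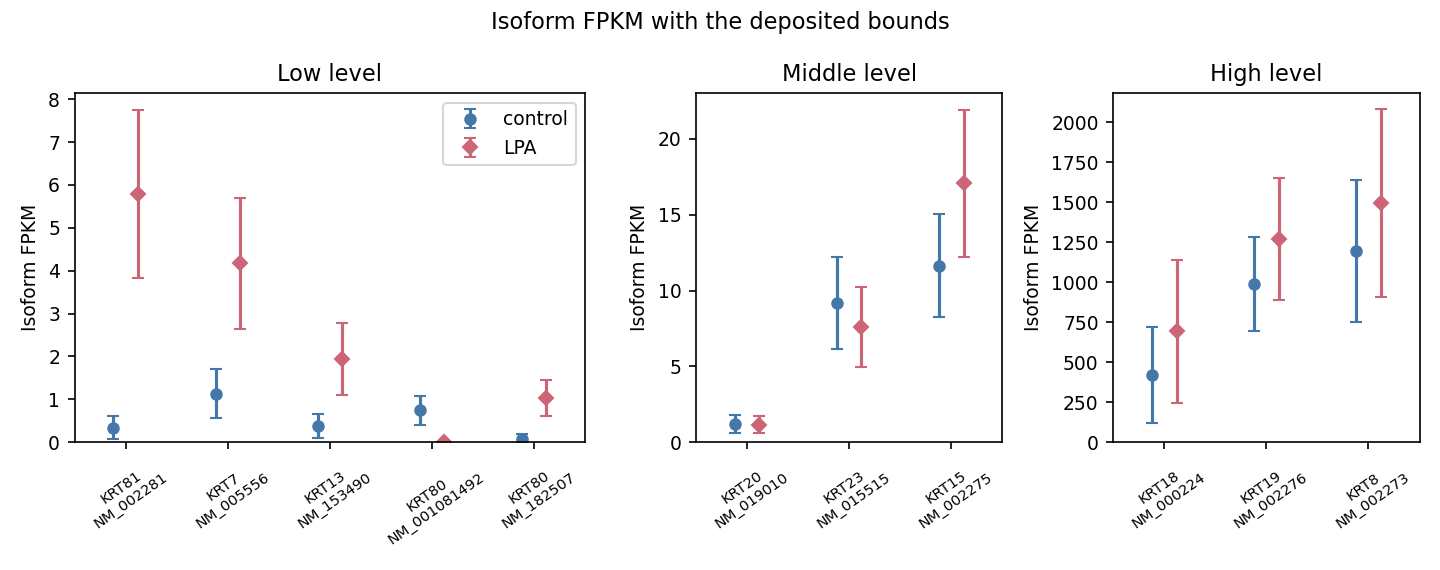
FPKM of keratin isoforms in the control (circles) and the LPA library (diamonds), 1 library each, with bars for the deposited lower and upper bounds, on 3 linear scales from low to high level. The bars are separate for KRT81, KRT7, KRT13 and both KRT80 isoforms and overlap for the other 6 isoforms.

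KRT80, a type II epithelial keratin, was 1.27-fold higher in the LPA library, and its FPKM were assigned mostly to a different isoform in each library. The gene on chromosome 12 (52168996 to 52192000) had 0.814 FPKM in control cells and 1.04 FPKM in LPA-treated cells, about 53 and 63 fragments. In the control 91.2% of it was the isoform NM_001081492, with 0.743 FPKM and bounds of 0.403 to 1.08 FPKM. In the LPA library that isoform stood at 0.000351 FPKM (upper bound 0.0307 FPKM), and NM_182507 had 1.04 FPKM (bounds 0.608 to 1.46 FPKM) against 0.0715 FPKM in the control (upper bound 0.196 FPKM). The bounds of both isoforms are separate between the libraries, in opposite directions.

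The KRT80 isoforms share all of their bases except 35, which is 0.899% of the longer transcript. The start of the last of 9 exons lies 35 bases further upstream in NM_001081492 (chromosome 12, 52171523 to 52171557, minus strand, GRCh38). These bases bring their own stop codon, so that NM_001081492 encodes 422 codons and NM_182507 encodes 452. The coding sequence at the junction is printed with 30 bases of the exon before it in lower case. Capitals mark the 35 extra bases of NM_001081492 and, for NM_182507, the first 30 bases after the junction.
NM_001081492: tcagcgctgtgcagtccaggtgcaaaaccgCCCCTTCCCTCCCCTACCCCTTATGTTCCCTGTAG
NM_182507: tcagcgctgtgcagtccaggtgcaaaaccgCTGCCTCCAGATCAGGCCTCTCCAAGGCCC
Only fragments that reach this junction tell the isoforms apart. How many of the 53 and 63 fragments did so is not given, and the split between the isoforms therefore rests on an unknown number of them. Opposite shifts with separate bounds were also seen elsewhere, in 7.24% of the 6147 genes with at least 2 isoforms of mean 0.1 FPKM or more.

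The KRT13 isoforms differ by a whole exon. NM_153490 holds an exon of 26 bases (exon 7 of 8, chromosome 17, 41501719 to 41501744, minus strand, GRCh38) that NM_002274 lacks, and they encode 458 and 420 codons. The junction is printed with 30 shared bases in lower case. Capitals mark the 26 bases of the exon and, for NM_002274, the 19 coding bases that follow in its place, up to the end of its stop codon.
NM_153490: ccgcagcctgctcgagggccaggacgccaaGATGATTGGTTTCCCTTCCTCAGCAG
NM_002274: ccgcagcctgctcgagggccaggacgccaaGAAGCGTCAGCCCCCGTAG
Here both libraries were assigned to the longer form. NM_002274 stood at 5.18e-05 FPKM in the control and was listed at 0 in the LPA library, with upper bounds of 0.0628 and 0.0690 FPKM.

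Over all 10 keratins, 14 isoforms on the reference chromosomes had a mean of at least 1 FPKM. The bounds were separate and higher in the LPA library for 3 of them (KRT81, KRT7 and KRT13) and overlapped for 11. The KRT81 and KRT13 isoforms reached this mean only through the LPA library. Among all isoforms at this level 2.48% were separate and higher, and 2.12% separate and lower. At a mean of at least 0.1 FPKM the KRT80 isoforms came in, giving 4 higher and 1 lower of 16, beside 3.75% and 3.66% of all isoforms.

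**Figure D3:**
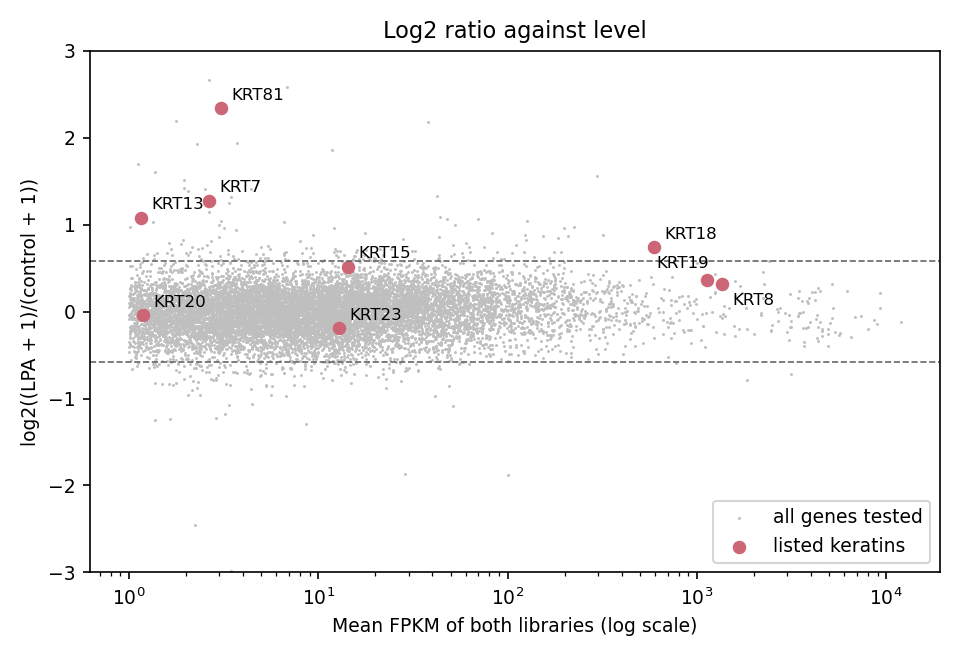
Log2 ratio against the mean FPKM of both libraries (log axis) for 11688 genes (grey) and the 9 measured keratins (red, named), with dashed lines at 1.5-fold; 22 genes lie outside the plotted range of -3 to 3. KRT81, KRT7 and KRT13 stand above the line at low level, KRT18 at high level, and KRT15 just below it.

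KRT15, a type I keratin of basal cells in stratified epithelia, had 11.6 FPKM in control cells and 17.1 FPKM in LPA-treated cells. The log2 ratio of 0.52 is just short of the 1.5-fold limit, and the bounds of 8.22 to 15.1 and 12.2 to 21.9 FPKM overlap. KRT13, KRT15 and KRT19 are neighbours on chromosome 17, between 41500981 and 41528389, and all were higher in the LPA library, by 4.98-, 1.47- and 1.28-fold. KRT80, KRT7 and KRT81 are likewise near each other on chromosome 12, between 52168996 and 52291515, with differences of 1.27-, 3.68- and 17.1-fold.

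KRT23 and KRT20, which lie further along chromosome 17 (40922696 to 40937643 and 40875889 to 40885243), had the only log2 ratios below 0 among the 9 measured of these 10 keratins. KRT23, a type I keratin seen in some colorectal tumours, had 13.7 FPKM in control cells and 11.9 FPKM in LPA-treated cells (log2 ratio -0.19). Its isoforms NM_015515 (9.16 and 7.62 FPKM) and NM_001282433 (4.58 and 4.31 FPKM) both had overlapping bounds. KRT20, a marker of differentiated intestinal epithelium, had 1.22 and 1.16 FPKM, about 37 and 33 fragments, with bounds of 0.626 to 1.82 and 0.587 to 1.72 FPKM. The 3 isoforms of these genes on an alternative contig of chromosome 17 were listed at 0 in both libraries.

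The order of the less abundant keratins differed between the libraries. In the control it ran KRT23, KRT15, KRT20, KRT7, KRT80, KRT13 and KRT81. In the LPA library it ran KRT15, KRT23, KRT81, KRT7, KRT13, KRT20 and KRT80. KRT81, the lowest of the 10 in the control, came sixth in the LPA library. Several neighbours overlap in their bounds, among them KRT20 and KRT7 in the control and KRT81 and KRT7 in the LPA library.

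Few other keratins were expressed. Among 54 other keratin symbols were 8 pseudogenes, none above a mean of 0.0884 FPKM. Among the remaining 46, 28 were listed at 0 in both libraries, 16 lay between 0 and 1 FPKM and 2 were measured. KRT10, a type I keratin of the suprabasal epidermis, had 15.3 FPKM in control cells and 17.9 FPKM in LPA-treated cells (log2 ratio 0.22). KRT222, a keratin-like gene, had 4.20 and 2.71 FPKM (log2 ratio -0.49). The basal pair KRT5 and KRT14 were listed at 0 in the control and stood at 0.0270 and 0.0375 FPKM in the LPA library. KRT16, linked to activated epidermis, had 0.270 and 0.476 FPKM, KRT17 had 0.0942 and 0.0385 FPKM, and KRT6A was listed at 0 in the control and had 0.0726 FPKM in the LPA library.

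Genes related to keratin filaments were counted at the same limit, which 1.45% of all genes passed on the higher and 1.54% on the lower side. In lists this short a count of 0 is near these shares and shows nothing particular to the list. Of 14 desmosome genes, whose products anchor keratin at cell contacts, 9 were measured and none was 1.5-fold apart, with 3 above and 6 below 0 and a median log2 ratio of -0.07. They ranged from PERP (81.5 FPKM in control cells and 65.7 FPKM in LPA-treated cells) to DSP, the plaque protein that binds keratin, with 11.9 and 16.0 FPKM. Of 10 hemidesmosome and plakin genes 8 were measured, 6 above and 2 below 0 with a median of 0.15 and none 1.5-fold apart. ITGB4, the integrin of hemidesmosomes, had 46.4 and 42.5 FPKM, and CD151, a tetraspanin that partners the laminin-binding integrins, had 221 and 284 FPKM.

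Among 8 measured of 15 other intermediate filament genes, 4 were above and 4 below 0, with a median of 0.04. They ran from NES (4.77 and 3.82 FPKM) to the muscle filament gene DES (1.49 and 2.58 FPKM, bounds overlapping). VIM, the filament gene of mesenchymal cells, had 1.94 and 1.88 FPKM. Of 18 genes in a mixed list of keratin-binding proteins, chaperones, caspases and keratinocyte-associated proteins 17 were measured, 9 above and 8 below 0 with a median of 0.00. The lowest was CASP6, a caspase that cuts KRT18, with 11.0 and 7.43 FPKM, and the highest KRTCAP2, a subunit of the oligosaccharyltransferase, with 131 and 178 FPKM. No gene of either list passed the 1.5-fold limit with the pseudocount, although the plain quotient for DES was 1.73-fold.

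Of 15 cornified envelope genes, which mark squamous differentiation, 5 were measured, 4 above and 1 below 0 with a median of 0.21. SPRR2D, a small proline-rich envelope protein gene, was the only one 1.5-fold apart. It was under 1 FPKM in the control and counts as measured only through the LPA library, where it was high, so nothing is read from this count. It had 0.960 FPKM in control cells and 6.51 FPKM in LPA-treated cells (log2 ratio 1.94), about 11 and 70 fragments, with bounds of 0.183 to 1.74 and 3.79 to 9.23 FPKM. CSTB, a cystatin gene, had the lowest ratio, with 245 and 240 FPKM. Envelope genes below 1 FPKM reached a mean of at most 0.517 FPKM, and 6 of them, IVL (involucrin) included, were listed at 0 in both libraries.

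Of 17 genes of colonic differentiation only 3 were measured and 12 stood at 0 in both libraries, a value that can also be a failed estimate. The measured ones were DPP4 (3.99 and 3.03 FPKM), CA2 (10.5 and 8.45 FPKM) and CDX2 (9.41 and 10.5 FPKM), with a median of -0.29. Of 18 epithelial transcription factor and splicing regulator genes 14 were measured, 6 above and 8 below 0 with a median of -0.04 and none 1.5-fold apart. They ran from TFAP2C (3.34 and 2.64 FPKM) to ETS1 (1.34 and 1.76 FPKM). KLF4 (15.2 and 14.3 FPKM) and KLF5 (10.2 and 9.88 FPKM) differed little.

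**Figure D4:**
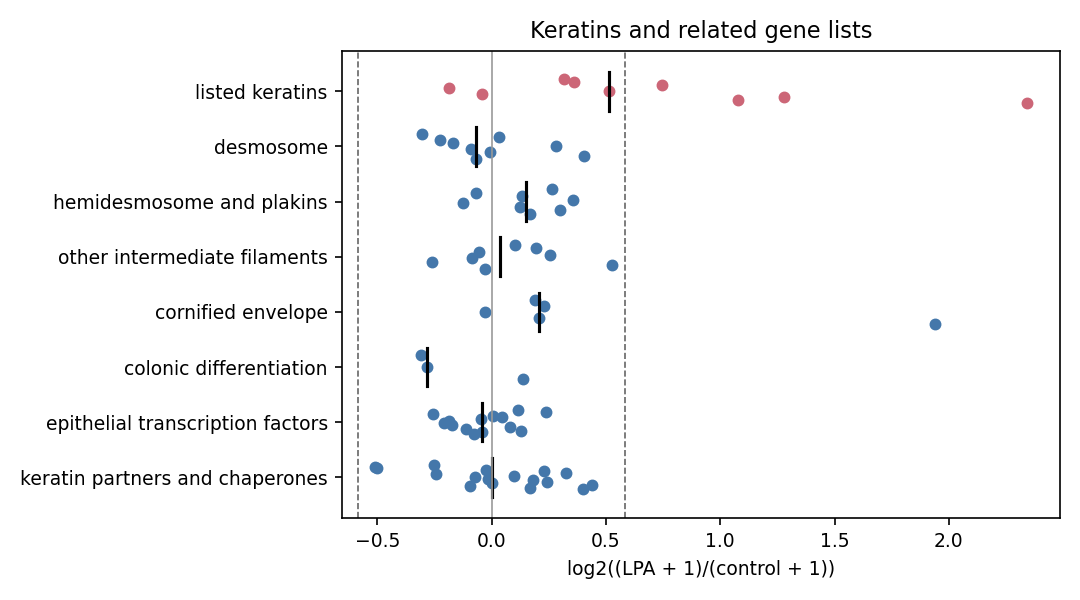
Log2 ratio of each measured gene (points) in the keratins (red) and 7 related lists (blue), 1 control and 1 LPA library, with black bars at the medians and dashed lines at 1.5-fold. Only keratins and SPRR2D lie beyond the dashed lines. Of these, KRT81, KRT13 and SPRR2D count as measured only through the LPA library.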

How the data were processed

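Poly-A RNA of 1 control and 1 LPA-treated library was compared, with groups taken from the sample titles. The deposited FPKM and their bounds were made by the authors with bcl2fastq 2.16.0.10, TopHat2 2.0.12, Cufflinks and Cuffdiff 2.2.0 on hg38, per the submitters' processing notes. Settings and scaling: not given in the sources used here. Of all isoforms 16 with the status HIDATA in the LPA library hold no estimate and were left out of both libraries, and none was a keratin. The 11 isoforms with the status FAIL were kept. FPKM were summed per gene symbol with pandas 2.3.3, a pseudocount of 1 was added, and genes with a mean of at least 1 FPKM were compared, counted at 1.5-fold and 2-fold. The pipeline was tested on simulated data. Depth was estimated from FPKM times length in kb among genes of 1 isoform over 2000 nt. The median of the values between 0.03 and 0.09 (0.0598 in control and 0.0636 in LPA) was taken as 1 fragment. The depth and all fragment numbers therefore depend on this chosen window, and they cover counting error only.

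Sequences and overlaps came from GENCODE v29 (GRCh38, the build of the files), matched by RefSeq name. Where no such match was close in length, the coding transcript of the gene nearest in length was used, as for KRT15 and KRT23. The KRT15 transcript compared (2394 nt) is longer than the deposited isoform, and that of KRT23 (1987 nt) is shorter than the leading deposited isoform. The keratins, the 12 gene lists, the limits and the rule for named genes (every keratin, and per list the genes past 1.5-fold and both extremes) were chosen with earlier results of these data known. A few other genes were named after their values were seen: CPA4, KRT86, KRT83, KRT4, KRT5, KRT14, KRT16, KRT17, KRT6A, VIM, KLF4, KLF5, IVL, and the markers.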

Additional observations from a re-analysis of the deposited data

How the results depend on the processing

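Differences between 2 libraries have no replicate error, and values near 1 FPKM rest on few fragments. Among 104 values recomputed under another pseudocount, filter, gene value, isoform set or centring, 10 moved. Part of this was fixed in advance. A pseudocount cannot change the sign of a gene's ratio, and a filter on level leaves the ratio as it is. Taking the leading isoform cannot change the values of KRT7, KRT81, KRT15 and KRT19, which have 1 isoform each. The other isoform set left out no keratin isoform, so it could change no keratin value. The number of keratins at least 1.5-fold higher was 4, against 2 with a pseudocount of 5 and 1 at a minimum mean of 5 FPKM. The shares of all genes at these settings were 1.45%, 0.599% and 1.39%. At a minimum mean of 5 FPKM, KRT81, KRT7 and KRT13 are not tested. The number of isoforms with separate bounds, 3 higher and 0 lower, was 0 higher at a minimum mean of 5 FPKM and 1 lower at a minimum mean of 0.1 FPKM, a limit added after seeing the data. The log2 ratio lay between 1.02 and 3.75 for KRT81, 0.58 and 1.79 for KRT7 and 0.36 and 2.06 for KRT13, lowest with a pseudocount of 5 and highest with 0.1. Those of KRT8, KRT15, KRT18, KRT19, KRT20 and KRT23, the median of the keratins and the type II to type I ratios moved less than the spread used as the limit. No paired analysis was possible because each group has 1 library.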

Other observations

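Keratin-associated proteins fill the matrix around hair keratins, and their genes were looked at after the value of KRT81 had been seen. Of 94 KRTAP genes 81 were listed at 0 in both libraries and 1 was measured. That gene, KRTAP2-3, lies within a locus of the table on chromosome 17 (41040559 to 41168172) shared with near-identical copies, so its value is uncertain. It had 3.69 FPKM in control cells and 6.17 FPKM in LPA-treated cells (log2 ratio 0.61), and no other KRTAP gene had a mean above 0.681 FPKM. Among those, KRTAP3-1 was lower in the LPA library, with 0.779 FPKM in control cells and 0.582 FPKM in LPA-treated cells (log2 ratio -0.17). KRTDAP, a gene of differentiating keratinocytes on chromosome 19 (35487324 to 35490531), had 1.21 and 2.29 FPKM (log2 ratio 0.57). The bounds of these genes were not compared, so whether they overlap between the libraries is not known here.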
